A study of Mus musculus with 46 samples.

Results

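Genomic regions marked by H3K27ac were compared between Ki67-positive and Ki67-negative microglia of mice at postnatal day 8 (PND8). The regions came from 4 deposited lists, 2 per group, which hold 114260 of the 325884 entries in the 12 H3K27ac lists of the series. Overlapping entries were merged, which gave 34523 regions. Of these, 22748 were listed in all 4 libraries and were tested. The other regions were compared by presence alone: 793 were listed in both Ki67-positive libraries and neither Ki67-negative one, 718 showed the reverse, and the rest were listed in some libraries of 1 or both groups. Each region was assigned to the nearest transcription start site (TSS) of the deposited RNA count table, and a region with a TSS inside it or at most 1 kb away is called a promoter region here. The nearest gene is a label of position, and nothing in these lists ties a distant region to that gene.

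Both groups consisted of microglia from wild-type (WT) male C57BL/6 mice killed at 8 days of age, with the treatment given as none. The titles of these libraries also carry the word Adult, which goes against the age label, and the age was followed. In both groups the brain was homogenised on ice in a buffer with sodium butyrate, an inhibitor of histone deacetylases, and flavopiridol, an inhibitor of the kinases that drive transcription elongation, so that the controls carried both agents too. Cells were stained for CD11b, CD45 and CD44, fixed, permeabilised and stained with an antibody to Ki67, then sorted. The matching RNA libraries, 2 per group, came instead from male Ki67-rfp reporter mice of the same strain and age, so RNA and chromatin were sorted by different means. The labels call the RNA replicates independent biological ones. For the chromatin libraries nothing says whether replicates came from separate animals or from pools, so their p-values measure only the spread between these libraries, which may be technical.

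Microglia are the resident macrophages of the brain, and they multiply in the tissue during the first weeks after birth. Ki67, the product of Mki67, is a nuclear protein of cycling cells that is degraded after cells leave the cycle. H3K27ac, acetylation of lysine 27 of histone H3, marks active promoters and enhancers. Genes of the G2 and M phases are repressed in resting cells by the DREAM complex, which is bound at a cell cycle homology region (CHR) in their promoters, and are later activated with B-Myb, FoxM1 and the CCAAT-binding factor NF-Y. Genes of the G1/S transition are held instead mainly through E2F sites.

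The promoters of 6 cell cycle genes are shown because the regions described first lie on them or on promoters of the same kind: 2 B-type cyclins, 2 mitotic kinases, the activator of the anaphase-promoting complex Cdc20 and the kinetochore protein Cenpf. Each run spans 250 bases before to 50 bases after the TSS, 5′ to 3′ on the gene's strand, from RefSeq on GRCm38.p6. Capitals mark CCAAT and the CHR sequence TTTGAA, on either strand.
Ccnb1: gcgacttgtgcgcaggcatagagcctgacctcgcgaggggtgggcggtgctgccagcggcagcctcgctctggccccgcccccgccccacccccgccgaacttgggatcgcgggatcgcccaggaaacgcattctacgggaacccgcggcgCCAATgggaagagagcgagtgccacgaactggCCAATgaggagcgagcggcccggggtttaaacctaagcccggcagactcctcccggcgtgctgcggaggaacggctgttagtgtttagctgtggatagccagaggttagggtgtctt
Ccnb2: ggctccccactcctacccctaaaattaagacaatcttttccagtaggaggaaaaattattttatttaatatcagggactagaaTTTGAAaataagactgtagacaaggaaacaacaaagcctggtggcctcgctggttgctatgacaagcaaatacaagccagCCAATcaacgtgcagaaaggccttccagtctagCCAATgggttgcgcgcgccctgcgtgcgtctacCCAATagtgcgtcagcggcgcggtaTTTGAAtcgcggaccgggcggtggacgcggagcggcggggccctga
Nek2: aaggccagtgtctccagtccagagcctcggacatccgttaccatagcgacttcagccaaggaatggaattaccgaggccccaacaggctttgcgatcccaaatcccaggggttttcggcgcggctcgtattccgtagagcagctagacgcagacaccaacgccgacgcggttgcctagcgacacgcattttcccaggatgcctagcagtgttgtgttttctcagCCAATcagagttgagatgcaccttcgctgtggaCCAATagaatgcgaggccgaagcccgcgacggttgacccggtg
Plk1: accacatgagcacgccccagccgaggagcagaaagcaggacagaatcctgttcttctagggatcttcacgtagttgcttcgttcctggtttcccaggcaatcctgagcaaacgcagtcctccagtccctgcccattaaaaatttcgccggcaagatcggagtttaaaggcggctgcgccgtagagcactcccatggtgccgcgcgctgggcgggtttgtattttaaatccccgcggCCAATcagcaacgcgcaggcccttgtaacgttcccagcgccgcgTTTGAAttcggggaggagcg
Cdc20: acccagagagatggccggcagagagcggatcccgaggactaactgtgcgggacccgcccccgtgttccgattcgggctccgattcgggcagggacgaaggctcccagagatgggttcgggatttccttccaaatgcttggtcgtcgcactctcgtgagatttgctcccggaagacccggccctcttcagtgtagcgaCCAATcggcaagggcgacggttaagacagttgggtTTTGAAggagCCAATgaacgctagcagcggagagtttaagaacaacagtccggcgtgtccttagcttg
Cenpf: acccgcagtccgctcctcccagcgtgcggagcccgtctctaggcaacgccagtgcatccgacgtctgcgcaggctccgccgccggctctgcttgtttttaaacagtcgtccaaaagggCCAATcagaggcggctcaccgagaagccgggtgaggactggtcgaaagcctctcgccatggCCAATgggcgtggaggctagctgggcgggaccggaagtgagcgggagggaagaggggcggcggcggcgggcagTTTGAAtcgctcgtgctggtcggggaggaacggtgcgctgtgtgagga
These runs lie at chr13:100786437-100786736 (Ccnb1, minus strand), chr9:70421505-70421804 (Ccnb2, minus), chr1:191821223-191821522 (Nek2, plus), chr7:122159185-122159484 (Plk1, plus), chr4:118437294-118437593 (Cdc20, minus) and chr1:189688037-189688336 (Cenpf, minus). All 6 held a CCAAT, from 1 in Plk1 to 3 in Ccnb2. TTTGAA was found in Ccnb2, Plk1, Cdc20 and Cenpf and not in these windows of Ccnb1 and Nek2.

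The 4 libraries held between 19600001 and 21747628 tags and between 26962 and 30321 listed regions, and the listed regions took 45.5 to 55.0% of all tags, most in Ki67-positive replicate 2. The value of a region is its tag count per 10000000 tags, summed over the listed entries within it and scaled so that the tested regions of each library had the same median, 132; it is called the scaled tag count below. Replicates 1 of both groups shared a numeric code in the file headers and replicates 2 shared another; the labels do not explain the code. A list holds only regions past the authors' threshold, so a value of 0 means not listed and not that tags were absent. In bulk libraries a mark on fewer cells and less mark per cell cannot be told apart. For the RNA of Mki67 itself, the Ki67-negative libraries had 242 and 282 CPM (counts scaled to the size of the library) and the Ki67-positive libraries 920 and 1107 CPM, so the negative sort was lower but not without Mki67 RNA.

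H3K27ac was higher in Ki67-positive cells at 181 regions and lower at 203. These are 0.796% and 0.892% of the 22748 regions tested, together 1.69% (limma on log2 of the scaled tag count plus 1, Benjamini-Hochberg adjusted p under 0.05). At the 181 regions the median scaled tag counts were 63.7 and 66.0 in the Ki67-negative libraries against 170 and 163 in the Ki67-positive ones. At the 203 regions they were 165 and 172 against 67.2 and 72.9. The groups did not overlap at any of the 384 called regions, nor at 10231 of all 22748 tested. With 2 libraries per group an exact permutation test of a single region cannot go below p = 0.333, so the calls rest on the spread shared across regions. When a library was left out of the Ki67-negative group, the higher and lower calls were 414 and 453 (replicate 1 out) or 752 and 467 (replicate 2 out). When a library was left out of the Ki67-positive group, they were 174 and 226 (replicate 1) or 299 and 641 (replicate 2); the lone library was then assumed to vary like the others.

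Part of each difference was in the length listed. At the higher regions the median listed length was 1085 and 1315 bp in the Ki67-negative libraries and 1911 and 2004 bp in the Ki67-positive ones. Their median tag density per kb was 50.5 and 50.7 against 89.9 and 87.6. At the lower regions the lengths were 2035 and 2137 bp against 1323 and 1548 bp, and the densities 74.8 and 77.3 against 46.2 and 47.8. By density, 177 of the 181 and 198 of the 203 had the same sign, but only 47 and 14 passed the same test. With the deposited values left unscaled, the median of all tested regions moved by 0.14 (log2) and 292 regions were higher and 96 lower, so the balance between directions depends on the scaling: 47.1% of calls were higher with it and 75.3% without. With no trend of the spread on the level 23 were higher and 10 lower, and when regions missing from some lists were tested too none passed (limma; 4533 at an unadjusted p under 0.05). By edgeR on whole tags recovered from the deposited values, an alternative chosen after the data were seen, 125 were higher and 113 lower, and all of these were among the 181 and 203.

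The higher and lower regions lay in different places. Of the higher regions 121 of 181 were promoter regions (66.9%, 95% exact binomial interval 59.5 to 73.7), against 11 of 203 lower regions (5.42%, 2.74 to 9.49) and 39.4% of all tested. Among the 8963 promoter regions tested, 121 rose and 11 fell. Among the 13785 regions elsewhere, 60 rose and 192 fell, most of them between 1 and 100 kb from a TSS (63 at 1 to 10 kb and 112 at 10 to 100 kb). The plot of change against level shows both groups of calls.

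**Figure D1:**
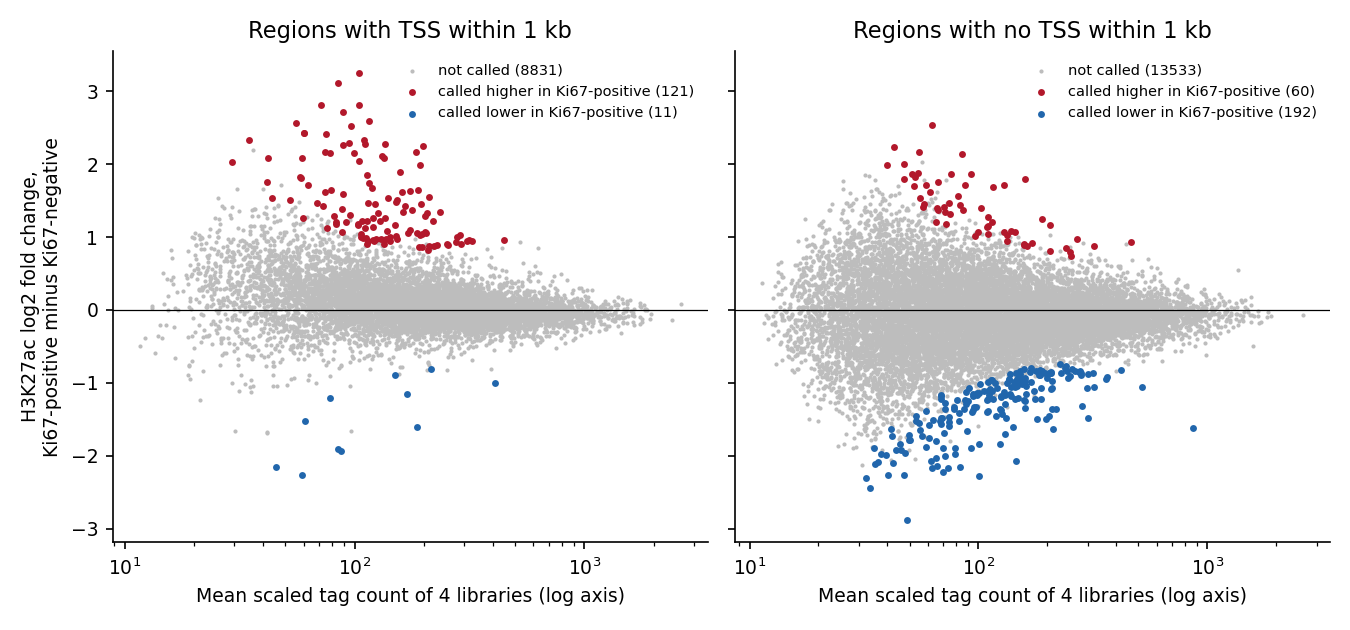
Change in H3K27ac (log2, Ki67-positive minus Ki67-negative) against the mean scaled tag count (log axis) of the tested regions, for the 8963 promoter regions and the 13785 regions elsewhere; colours mark regions called higher or lower by limma. Calls at promoters are mostly higher (121 against 11) and calls elsewhere mostly lower (192 against 60).

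Of the 10 regions with the largest rises 9 were promoters. At Nek2, a kinase of centrosome separation (chr1:191820970-191822510), the scaled tag count was 29.7 and 11.8 in the Ki67-negative libraries and 214 and 164 in the Ki67-positive ones, a log2 difference of 3.25 (SE 0.38, limma adjusted p = 0.0024). At Ccnb1, which encodes cyclin B1 (chr13:100785395-100787151), it was 22.5 and 12.3 against 158 and 145 (3.11, SE 0.34, limma adjusted p = 0.0019). At Ccnb2, the second B-type cyclin (chr9:70420271-70422610), it was 25.3 and 24.998 against 214 and 156 (2.81, SE 0.27). In all 3 the lowest Ki67-positive library stood several times above the highest Ki67-negative one. At Plk1, the polo-like kinase that acts at mitotic entry (chr7:122158332-122160824), the scaled tag counts were 32.9 and 31.0 against 214 and 184 (2.60, SE 0.24, limma adjusted p = 0.0012).

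Spindle and division genes followed. Dlgap5, a protein of spindle microtubules, had 18.6 and 15.6 in the Ki67-negative libraries against 109 and 144 in the Ki67-positive ones (2.81, SE 0.32). Racgap1, a subunit of centralspindlin that acts in cytokinesis, had 14.9 and 49.5 against 150 and 174 (2.52, SE 0.43); its Ki67-negative libraries differed more from each other than those of Dlgap5. The DNA helicase gene Pif1 had 26.9 and 19.4 against 151 and 159 (2.71, SE 0.29). The remaining promoters of this group were Parpbp, whose product binds PARP1 and restrains homologous recombination and whose region also holds the TSS of Nup37 (2.56), and Mtfr2, a regulator of mitochondrial fission (2.43). The only region of the 10 away from a promoter lay 46260 bp from the TSS of Bcl2l14, at chr6:134366083-134368168, with 14.9 and 20.7 against 101 and 113 (2.54, SE 0.33).

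None of these 10 regions was in either list of adult microglia. Their listed lengths grew too, at Plk1 from 791 and 817 bp to 2283 and 2441 bp. By tag density 7 of the 10 still passed (Nek2 2.16, Ccnb1 1.92, Pif1 1.38, Ccnb2 1.35, Racgap1 1.34, Parpbp 1.27 and Plk1 1.12), and Bcl2l14 (1.14), Mtfr2 (1.03) and Dlgap5 (0.79) did not. The plot of the largest changes shows each library.

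Of the 10 largest falls 9 lay away from promoters. The strongest lay 95243 bp from the TSS of Dock8, an activator of the GTPase Cdc42 in leukocytes (chr19:25094772-25097824), with scaled tag counts of 88.4 and 85.2 in the Ki67-negative libraries and 12.9 and 9.24 in the Ki67-positive ones (−2.88, SE 0.39, limma adjusted p = 0.0044). A region 66622 bp from the TSS of Nipsnap3b had 180.0 and 155 against 30.9 and 36.7 (−2.28, SE 0.25). A region 81620 bp from the TSS of Plxna4, a semaphorin receptor, had 88.4 and 47.1 against 12.3 and 13.1 (−2.26, SE 0.43). In these the groups were far apart. The call at Plxna4 was lost without Ki67-negative replicate 1 (−1.81), as was that at Uqcr10 (−2.24). The others lay nearest to Sorbs3 (−2.45), Uqcr10 (−2.31), Adi1 (−2.26), Irf3, a transcription factor of the interferon response (−2.22), Dhrs3, a retinal reductase (−2.17), and Fbxw5 (−2.17). At Dock8, Plxna4, Sorbs3, Uqcr10 and Adi1 both Ki67-positive libraries were listed over the smallest window, 500 bp. Only that window was listed too in Ki67-positive replicate 2 at Irf3 and in replicate 1 at Dhrs3 and Fbxw5.

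The promoter among the 10 falls was that of Ifi207, an interferon-inducible gene (chr1:173741048-173743720), with 96.1 and 101 in the Ki67-negative libraries against 16.0 and 24.4 (−2.26, SE 0.33, limma adjusted p = 0.0086). By tag density none of the 10 falls passed, with differences between −1.01 at Irf3 and −0.41 at Dhrs3. Of the genes nearest to the 10 falls only Sorbs3 had a called RNA change (−1.55, edgeR adjusted p = 0.0242).

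**Figure D2:**
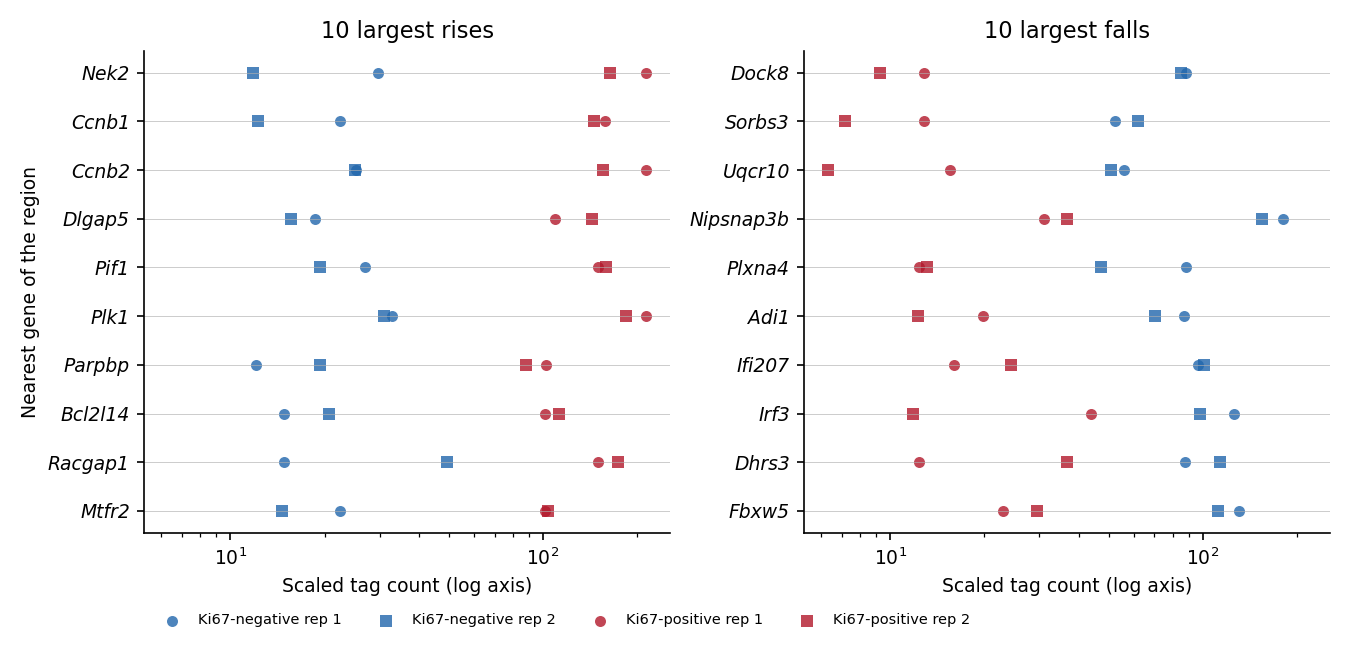
Scaled tag count (log axis) in each of the 4 libraries for the 10 regions with the largest rise (left) and the 10 with the largest fall (right), labelled by nearest gene; circles are replicate 1 and squares replicate 2. In every row both Ki67-positive points lie on 1 side of both Ki67-negative points, for example 214 and 164 against 29.7 and 11.8 at Nek2.

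The regions nearest to the threshold were as follows. The last region called higher was nearest to Cenpb (0.91, limma adjusted p = 0.0497) and the first not called was nearest to Lrp1 (0.87, adjusted p = 0.0504). The last called lower was nearest to Gltp (−0.99, adjusted p = 0.0488) and the first not called nearest to Pfkfb3 (−1.43, adjusted p = 0.0504).

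Promoters of G2 and M phase genes were higher in Ki67-positive cells. All 54 genes of the G2/M list had a promoter region, 51 of them in all 4 lists, and 20 rose, none fell and all 51 differences were positive. The median was 0.79. Over all 10045 genes with a tested promoter region 134 rose (1.33%), 11 fell (0.11%), 5862 were positive and the median was 0.05. By density the median of the G2/M list was 0.49 and 11 of its promoters passed. The list is a general one of proliferating cells and not specific to microglia.

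Ube2c, the ubiquitin-conjugating enzyme of the anaphase-promoting complex, had 28.5 and 47.5 in the Ki67-negative libraries against 198 and 169 in the Ki67-positive ones (2.28, SE 0.28). Its partner Cdc20 had 85.1 and 96.1 against 302 and 271 (1.65, SE 0.18). Cdca8, of the chromosomal passenger complex, had 51.0 and 46.2 against 222 and 207 (2.12, SE 0.21). Among these the replicates of a group differed by far less than the groups did.

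The spindle genes Nusap1 (2.08) and Tpx2 (1.85), the kinesins Kif23 (1.74), Kif2c (1.17) and the kinesin-like kinetochore motor Cenpe (1.26) also rose, as did Ect2 (1.45), which activates RhoA in cytokinesis, and Gtse1 (1.61). The others that rose were Pimreg (1.99), Rangap1 (1.53), Hmmr (1.17), Ckap2 (1.00) and Anp32e (0.90), of which Ckap2 and Anp32e were not called without Ki67-positive replicate 1 (0.94 and 0.66). Aurka, the mitotic kinase Aurora A, shares its region with Cstf1 and had 204 and 216 against 433 and 383 (0.95, SE 0.17, limma adjusted p = 0.021). Mki67 had 126 and 135 against 337 and 277 (1.22, SE 0.18, limma adjusted p = 0.0078). Promoters with high levels in both groups, such as those of Cdk1 (447 and 331 against 600 and 451), Birc5 (411 and 419 against 574 and 506) and Jpt1 (725 and 541 against 737 and 574), did not pass.

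Some G2/M promoters were at or below the threshold of listing in Ki67-negative cells and could not be tested. Cenpf had 0 and 15.6 in the Ki67-negative libraries against 154 and 149.6 in the Ki67-positive ones. Top2a, the topoisomerase that untangles chromosomes, had 0 and 42.4 against 174 and 126. Cdc25c, a phosphatase that activates Cdk1, was listed in neither Ki67-negative library and at 105 and 111 in the Ki67-positive ones.

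In a list of 26 mitotic regulators, which shares genes with the G2/M list, 24 promoters were tested, 8 rose and none fell (median 0.77). They were Ccnb1, Ccnb2, Plk1, Aurka and Cdc20, given above, with Ccna2 (70.8 and 62.2 against 264 and 236, 1.90, SE 0.20), Cdc25b (21.95 and 28.7 against 78.4 and 105, 1.81, SE 0.32) and Lin9 (223 and 160 against 400 and 328, 0.94, SE 0.20). Ccna2 encodes cyclin A2, Cdc25b a phosphatase that activates Cdk1, and Lin9 a subunit of the MuvB core that DREAM and the B-Myb complex share. Lin9 was not called without Ki67-positive replicate 1 (0.79) or Ki67-negative replicate 2 (0.70). Mybl2, the gene of B-Myb itself, was listed in the Ki67-positive libraries alone, at 64.6 and 63.7.

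Fewer genes of S phase were called at their promoters. Of 43 genes in the S list 42 were tested, 6 rose, 1 fell and 38 differences were positive (median 0.37, by density 0.24). Those that rose make nucleotides, Tyms (1.43), Rrm1 (1.26) and Rrm2 (0.98), maintain DNA methylation, Uhrf1 (1.34), or act in the replication checkpoint, Clspn (2.16), with the transcriptional repressor E2f8 (1.42). Clspn had 21.95 and 34.8 in the Ki67-negative libraries against 144 and 112 in the Ki67-positive ones. Ung, which removes uracil from DNA, was the gene that fell, with 90.6 and 88.1 against 41.6 and 22.3 (−1.52, SE 0.34, limma adjusted p = 0.0477); by density its difference was −0.25, and it was not called without Ki67-positive replicate 2 (−1.08). Tyms and Rrm1 were not called without Ki67-positive replicate 1 (1.36 and 1.03), and without Ki67-negative replicate 2 the list had 10 higher promoters. The replication genes Mcm5 (102 and 110 against 126 and 135, 0.30, SE 0.20) and Pcna (257 and 171 against 325 and 243, 0.42, SE 0.22) did not pass, and for Pcna the groups overlapped.

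Of 25 regulators of G1, 23 promoters were tested and 2 rose, none fell (median 0.35). These were Cdkn2a, which encodes cell cycle inhibitors (108 and 114 against 244 and 232, 1.09, SE 0.18), and E2f2 (103 and 134 against 309 and 283, 1.32, SE 0.19). Ccnd1, the gene of cyclin D1, had 526 and 556 against 727 and 698 (0.40, SE 0.21) and did not pass at its promoter. A region 77724 bp from the TSS of Ccnd1 rose, from 12.1 and 17.9 to 44.2 and 85.2 (1.99, SE 0.44), and so did a region 36959 bp from Cdk6, a partner kinase of cyclin D (58.8 and 69.3 against 139 and 174, 1.27, SE 0.23). These were 2 of 46 tested regions away from promoters nearest to this list (4.35%), against 0.435% of 13783 for all genes. By density neither passed (0.57 and 0.34). Neither gene had a called RNA change (−0.28 and 0.10).

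Histone genes were looked at after their values had been seen. The table holds 67 genes with the symbols of replication-dependent histones, and 59 of them lay in 36 tested promoter regions. Of these regions 8, with 11 genes, rose, none fell and 32 were positive (median 0.37, by density 0.17). Over all 8948 tested promoter regions 121 rose, 11 fell and 5179 were positive. The strongest histone region was at Hist1h3i, with 53.8 and 85.7 in the Ki67-negative libraries against 358 and 299 in the Ki67-positive ones (2.25, SE 0.23). These genes are close copies in clusters, so reads may have been split among them.

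Most genes with a higher promoter were in none of these lists. Of the 134 genes 33 were in a cell cycle list and 11 were histone genes, which left 90. Those picked out here were chosen after their values were seen. Genes of cell division stood among these 90 too, such as Prc1, a bundler of spindle midzone microtubules, with 32.4 and 63.1 against 222 and 223 (2.27), the mitotic kinesin gene Kif18b, with 85.1 and 72.1 against 266 and 222 (1.62), the kinetochore gene Spc25 (1.72) and Plk4, the kinase of centriole duplication (1.03). Cbx6, a Polycomb subunit, had 13.8 and 23.0 against 86.0 and 118 (2.43), and Xkr5 had 32.4 and 39.6 against 184 and 185 (2.33). Nes, the gene of the filament protein nestin, had 53.3 and 93.7 against 185 and 173 (1.32). Tnf, an inflammatory cytokine gene, had 218 and 223 against 431 and 419 (0.94, SE 0.17), with no called change in its RNA (−0.01). The 11 genes with a lower promoter were Apob, Prdx3, Chmp6, Folr1, Klhl38, Ung, Gramd1b, Masp2, Angptl7, Gprc5c and Ifi207, with differences from −0.81 at Apob to −2.26 at Ifi207.

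Promoters of genes of microglial identity were not called. Over all 10045 genes with a tested promoter region only 1.33% rose and 0.11% fell, so a list this short may hold no call whatever its genes. The same holds for the lists that follow. Of 30 homeostatic genes 29 promoters were tested and none passed (limma; at an unadjusted p under 0.05, 0 higher and 1 lower; edgeR on tags, 0). The median was 0.00, or 0.14 on the deposited scale, and the differences ran from −0.71 to 0.17. Levels at P2ry12 and Csf1r were many times those of the mitotic promoters with the largest rises. P2ry12, a purine receptor of resting microglia, had 2172 and 1534 in the Ki67-negative libraries against 2146 and 1583 (0.01, SE 0.42), and its sign turned by density (−0.13). Csf1r, the receptor on which microglia depend for survival, had 1776 and 1298 against 1563 and 1436 (−0.02, SE 0.36); its sign turned on the deposited scale (0.12). In these genes the replicates of a group differed more than the groups did.

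Cx3cr1, the fractalkine receptor, had 1773 and 1224 against 1844 and 1311 (0.08, SE 0.38), and Sall1, a transcription factor of microglial identity, had 1654 and 1114 against 1826 and 1250 (0.15, SE 0.37). Without Ki67-negative replicate 2 they were −0.19 and −0.13. Tmem119 had 569 and 709 against 810 and 629 (0.17, SE 0.24). In each of the 3 the groups overlapped.

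None of 22 tested promoters of lineage transcription factors passed (limma; 0 and 2 at an unadjusted p under 0.05; edgeR on tags, 0), with a median of −0.04, or 0.10 on the deposited scale. Genes of the neonatal and disease-associated states likewise gave none among 22 (limma; 0 higher and 4 lower unadjusted; edgeR on tags, 0), with a median of −0.05, or 0.09 on the deposited scale. Within this list Igf1, a growth factor gene, had 279.5 and 251.1 in the Ki67-negative libraries against 150 and 164 in the Ki67-positive ones (−0.75, SE 0.17, limma adjusted p = 0.0518). Apoe, a lipid carrier, had 587 and 555 against 413 and 396 (−0.50, SE 0.19, limma adjusted p = 0.208). In both genes the groups did not overlap, and neither passed this test. Such separation was common: 3 of the 22 promoters were apart with Ki67-positive higher and 5 with it lower. Over all 10045 genes with a tested promoter region these were 2542 and 1064. Gpnmb was listed in the Ki67-negative libraries alone, at 35.7 and 16.0, and Spp1 had no promoter region in any list.

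Of 15 tested interferon genes only Ifi207 passed (median −0.03, or 0.11 on the deposited scale), and of 27 immediate early genes, which respond to handling of cells, none did (limma; 2 higher and 1 lower unadjusted; edgeR on tags, 0; median 0.03). Away from promoters, 124 regions nearest to homeostatic genes gave no call against 60 higher and 191 lower among 13783 regions of all genes. Regions nearest to lineage factors gave 3 higher of 171, all nearest to Sall3, the closest at 549464 bp. Regions nearest to the neonatal and disease-associated genes gave 2 lower of 38, at Ctsd (358 and 319 against 175 and 203, −0.84) and Timp2 (73.1 and 83.8 against 25.6 and 19.0, −1.78). A region 27689 bp from Ckap2l, a spindle gene, fell (212 and 285 against 115 and 96.1, −1.22) while its RNA rose (1.52).

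Except for border macrophages, few markers of other cells had a promoter region in these lists, where 10883 of all 20999 genes had one. None of 14 neuronal genes had a promoter region in any library, and 1 of 10 astrocyte, 3 of 11 oligodendrocyte, 2 of 11 endothelial, 2 of 12 lymphocyte and 2 of 14 monocyte and neutrophil genes did. Border macrophage genes had more, 11 of 13, with a summed scaled tag count of 1381 and 1500 in the Ki67-negative libraries and 1469 and 1353 in the Ki67-positive ones, which overlapped. None of the tested promoters of these 7 lists passed (limma; 0 at an unadjusted p under 0.05; edgeR on tags, 0).

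**Figure D3:**
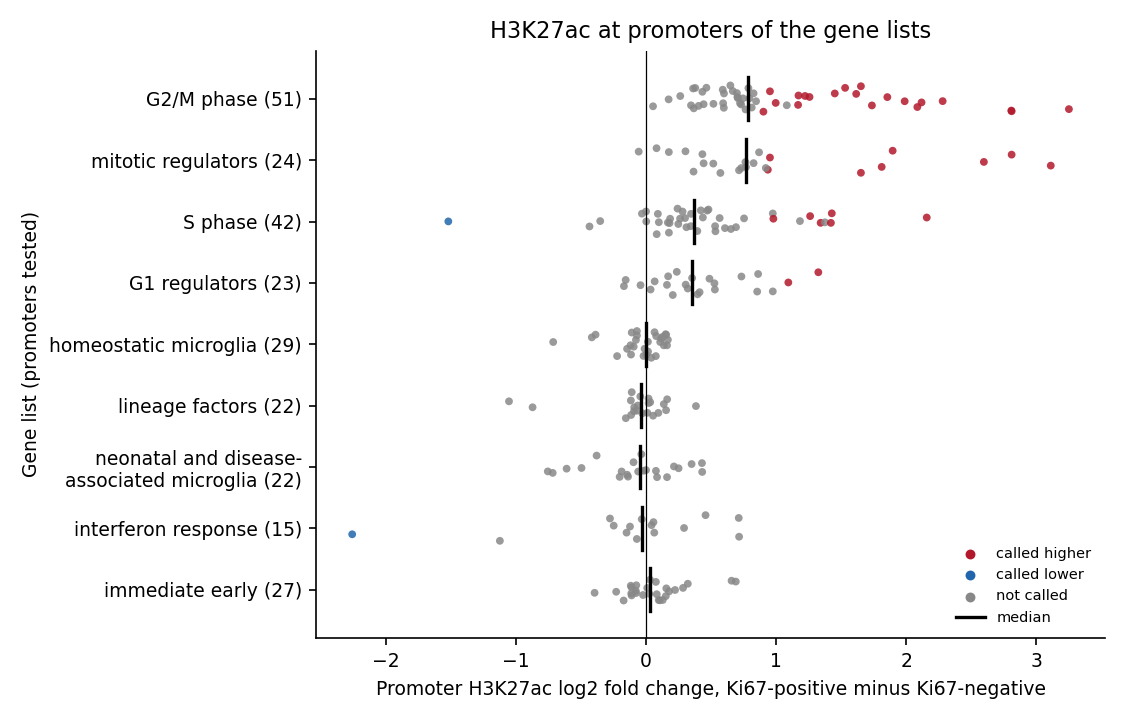
Promoter H3K27ac difference (log2, Ki67-positive minus Ki67-negative) of every tested gene in each fixed list, with the list's median as a bar; filled colours mark genes called by limma. The G2/M list lies wholly above 0 with a median of 0.79, while the homeostatic list is spread around 0.00.

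The RNA of PND8 microglia gave a readout that the choice of regions did not use. In edgeR's quasi-likelihood test, fitted on all 10 RNA libraries, 336 genes were higher in Ki67-positive cells (2.75% of 12230 tested) and 385 lower (3.15%). The filter and the estimate of spread thus also used libraries of older mice, some of them treated. With the PND8 libraries alone 228 genes were higher and 164 lower of 11829 tested. With Ki67-negative replicate 1 left out the counts were 672 and 441, with Ki67-positive replicate 1 left out 284 and 168, and with Ki67-positive replicate 2 left out 162 and 58. The promoters of 290 genes with higher RNA (2.96% of those tested in both) were tested: 63 of them rose (21.7%) and 259 were positive, with a median of 0.49. The promoters of 278 genes with lower RNA (2.84%) gave 5 higher and 2 lower, 152 positive and a median of 0.03, close to the 0.04 of all 9789 genes tested in both. Of all 9789, 57.9% were positive. Of the 124 genes with a higher promoter and tested RNA, 63 had higher and 5 had lower RNA. Across those 9789 genes Pearson's r between the promoter and RNA differences was 0.29 and Spearman's rho 0.15, a description over genes that share the same libraries and are not independent.

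The genes with the largest RNA rises had higher promoters in most cases. Pif1 RNA went from 4.46 and 12.5 CPM to 108 and 141 CPM (log2 3.82, SE 0.34, edgeR adjusted p = 2.77e-05), and its promoter difference was 2.71. Cdc25b RNA went from 8.29 and 11.6 CPM to 110 and 140 CPM (3.63, promoter 1.81), and Sapcd2, a regulator of spindle orientation, from 2.48 and 6.79 CPM to 46.6 and 52.5 CPM (3.36, promoter 2.26). Aspm, a spindle pole protein, rose by 3.16 in RNA and by 1.67 at its promoter. Nek2 RNA went from 6.93 and 15.2 CPM to 79.1 and 84.1 CPM (2.84, promoter 3.25). The histone gene Hist1h4k, at 0 and 0.275 CPM against 1.65 and 1.73 CPM (3.32, edgeR adjusted p = 0.0413), had a promoter that rose by 1.08 (limma adjusted p = 0.0266). The histone genes Hist1h3d (3.59) and Hist1h1b (2.83) had called RNA rises at levels of at most 6.01 CPM while their promoters, at 0.50 and 0.18, did not pass. RNA was selected by polyA, and most transcripts of these histones lack a polyA tail.

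S-phase genes differed in direction between the readouts. In the S list 28 of 43 genes had lower RNA in Ki67-positive cells (edgeR; median −0.72), whereas 38 of 42 promoters were positive. Of the 27 genes with lower RNA and a tested promoter 23 had a positive promoter difference. Of those 27 promoters 2 rose and that of Ung fell. The largest RNA falls with a tested promoter were mostly in replication genes: Cdc6, which loads the replicative helicase (RNA −2.03, promoter 1.38, limma adjusted p = 0.112), Chaf1b of chromatin assembly (−1.83, promoter 1.18), Ung (−1.66, promoter −1.52), Ccne2, a cyclin of S-phase entry (−1.65, promoter 0.97), Dscc1 (−1.59, promoter 0.26) and Dtl (−1.52, promoter 0.35). Mymk (−1.77, promoter −0.45) was among them too. The RNA and chromatin cells were sorted by reporter and by antibody, and the part this has in the difference between readouts was not tested.

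For 5 genes, picked out after their values were seen, the promoter rose while the RNA fell: Clspn, Dusp27, E2f2, Rad54l and Uhrf1. They are 1.80% of the 278 genes with lower RNA, near the 1.27% with a higher promoter among all 9789. By density the promoter rise did not pass at Dusp27 (0.31) or Rad54l (0.89). At Uhrf1 the scaled tag counts were 128 and 136 in the Ki67-negative libraries and 375 and 301 in the Ki67-positive ones (1.34, SE 0.18), while the RNA was 165 and 172 CPM against 96.5 and 104 CPM (−0.75, SE 0.18, edgeR adjusted p = 0.0234). E2f2 RNA was 56.7 and 71.0 CPM against 33.4 and 33.2 CPM (−0.94). Rad54l, of homologous recombination, had 17.5 and 34.4 against 91.3 and 88.1 at its promoter (1.82) and an RNA difference of −0.81. In the plot of promoter against RNA these genes lie in the upper left quadrant.

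**Figure D4:**
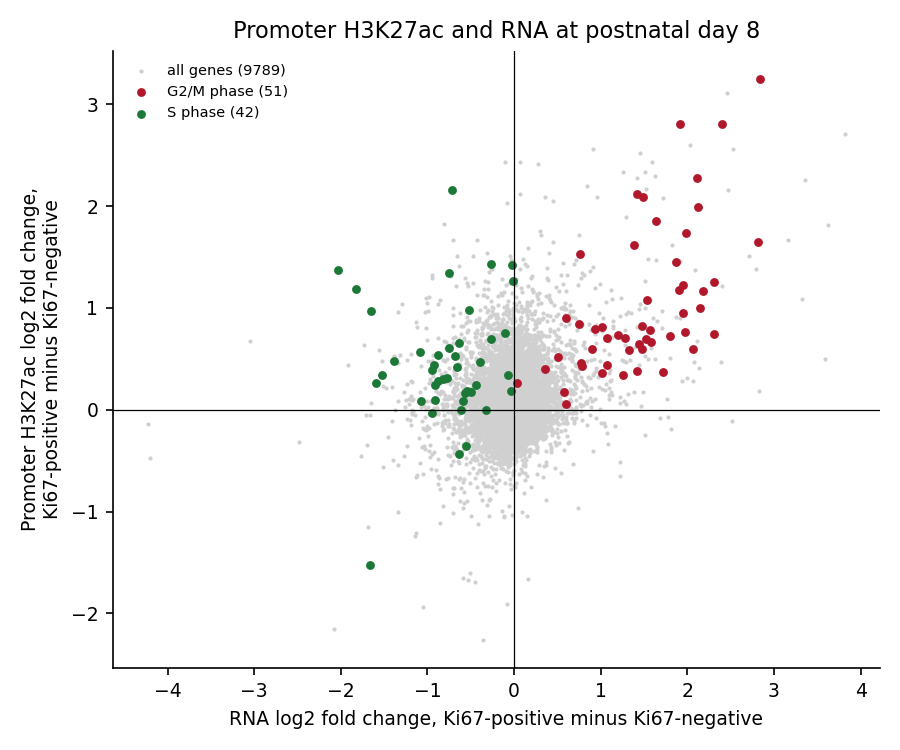
Promoter H3K27ac difference (vertical, log2) against RNA difference (horizontal, log2), both Ki67-positive minus Ki67-negative, for the 9789 genes tested in both, with G2/M and S genes coloured. Most G2/M genes lie to the upper right, while 38 of 42 S genes lie to the upper left, above 0 at the promoter and below 0 in RNA.

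Promoter sequences were searched for 3 motifs. Of the 134 genes with a higher promoter 106 matched a RefSeq promoter of 300 bases, and 63.2% of these held CCAAT and 47.2% held TTTGAA on either strand. Among the 8078 matched genes of the 10045 with a tested promoter region the shares were 39.7% and 11.5%, and among all 27025 RefSeq promoters given they were 37.9% and 18.1%. Both motifs were present in 36.8% of the higher promoters and in 4.93% of those tested. The 47 matched G2/M genes held CCAAT in 76.6% and TTTGAA in 68.1%, and the 31 matched S genes in 71.0% and 16.1%. The E2F sequence TTTNGCGC was found in 19.4% of the S promoters, 6.38% of the G2/M promoters and 2.74% of those tested. The 3 motifs were searched as letters, on both strands, and may share bases where they meet. A match is not a bound site.

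Regions listed in 1 group alone were short, with a median of 891 bp for the 793 regions of Ki67-positive and 875 bp for the 718 of Ki67-negative libraries, against 2023 bp for tested regions. They held 111 promoter genes in the first class and 22 in the second. Promoter regions made up 13.7% of the first class and 3.06% of the second, both below the 28.4% of all merged regions. Presence varied between replicates as well: 6129 regions were in 1 of the 2 Ki67-positive lists and 5758 in 1 of the 2 Ki67-negative lists, more than either class. With unlisted entries at 0, the limma test over all 34523 merged regions called none, not even the 181 and 203 called above. It therefore cannot decide whether the regions of these classes differ. The strongest of the first class lay 1106 bp from Hist2h2aa1 (228 and 169), at the promoters of Afmid and of Tk1, the thymidine kinase of S phase (149 and 147), 125411 bp from Zfp36l2 (156 and 146), 8874 bp from Tmem119 (160 and 113) and 84295 bp from Mef2a (91.3 and 102). The others lay 11629 bp from Nrarp, 44216 bp from St3gal6 and at the promoter of Cdc25c.

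The 8 strongest regions of the second class all lay away from promoters. A region 20595 bp from the TSS of Lrp1, a scavenger receptor of lipoproteins, had 246 and 168 in the Ki67-negative libraries and was not listed in the Ki67-positive ones, and a region 11008 bp from Ncaph had 140 and 116. The others were 2719 to 17162 bp from the nearest TSS, that of Edem2 (114 and 151), Itm2b (132 and 106), Dbnl (156 and 106), Atf6 (117 and 116) or Gramd1a (103 and 126), save 1 that was 330266 bp from its nearest, Foxk1 (114 and 127). None of the tested genes among these 8 had a called RNA change (edgeR adjusted p from 0.105 at Edem2 upwards). An entry counted as present in a region by 1 bp of overlap.

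In adult microglia of WT males (60 and 65 days, no treatment, 2 lists) fewer of the higher regions were listed than of all tested. Of the 181, 45.9% (95% exact binomial interval 38.4 to 53.4) were in both adult lists and 30.9% in neither, whereas of all tested regions 74.5% were in both and 8.96% in neither. The lower regions were near the background, with 75.4% in both. In Ki67-positive cells of 90-day WT males that recovered for 3 days after 17 days of PLX5622, a Csf1r inhibitor that depletes microglia, 94.5% of the higher and 67.5% of the lower regions were in both lists, against 86.5% of all tested. Open chromatin (ATAC-seq) and RNA polymerase II (its subunit Rpb2) were each profiled in 1 library of PND8 Ki67-positive cells. A peak of ATAC-seq lay in 98.3% of the higher, 90.1% of the lower and 95.7% of all tested regions, and a peak of Rpb2 in 91.7% (86.7 to 95.3), 48.3% (41.2 to 55.4) and 78.7%. The higher regions were more often promoters than the lower ones (66.9% against 5.42%), and the part this has in the overlap with Rpb2 was not tested.

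The same contrast was available in WT males of 90 days fed cuprizone, a copper chelator that kills oligodendrocytes, for 4 weeks, with 2 lists per group. In a fit of all 8 lists 18156 regions were tested, of which 176 were higher (0.969%) and 159 lower (0.876%) in Ki67-positive cells under cuprizone. At PND8 the same fit called 53 higher (0.292%) and 106 lower (0.584%). Over all 18156 regions, 11673 had the same sign in both settings. Of the 181 regions higher at PND8, 98 were tested here: 91 had the same sign under cuprizone, 26 were called the same way and none the opposite way, and the median was 0.88 against 1.10 at PND8. Of the 203 lower regions 164 were tested: 128 had the same sign, 14 were called the same way and none the opposite way, with medians of −0.43 and −1.11. The PND8 values of these regions chose them, so their larger size at PND8 is not a result. The top mitotic promoters were not in all 8 lists, so their difference between settings was not tested.

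A test of the difference between the contrasts at PND8 and under cuprizone passed at 0 regions upward and 4 downward (0.022%; limma; 1373 at an unadjusted p under 0.05). These were the promoters of Gramd1b, a carrier of cholesterol between membranes, and of Ifi207, a region 67182 bp from Abca1, the exporter of cholesterol, and a region 79548 bp from Tmem163, a zinc transporter. For this fit the entries of all 8 lists were merged and scaled together, so its scaled tag counts differ from those given above. Near Abca1 the scaled tag counts fell from 169 and 163 to 74.4 and 75.0 at PND8 and were 158 and 157 against 266 and 277 under cuprizone. At Gramd1b they fell from 346 and 263 to 102 and 99.5 at PND8 and were 253 and 276 against 369 and 427 under cuprizone. In both, every Ki67-positive library was below its controls at PND8 and above them under cuprizone. Taken alone, the rise under cuprizone passed at neither (limma adjusted p = 0.0547 near Abca1 and 0.121 at Gramd1b). The downward calls were 0 or 1 without PND8 Ki67-negative replicate 1 or 2, PND8 Ki67-positive replicate 1, or cuprizone Ki67-negative or Ki67-positive replicate 1, but 23 without PND8 Ki67-positive replicate 2 and 50 without cuprizone Ki67-negative replicate 2. By density none passed. Igf1 had −0.73 at PND8 and 0.82 under cuprizone (difference −1.54, limma adjusted p = 0.134), and Apoe −0.47 and 0.47 (−0.93, adjusted p = 0.281), neither of which passed.

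**Figure D5:**
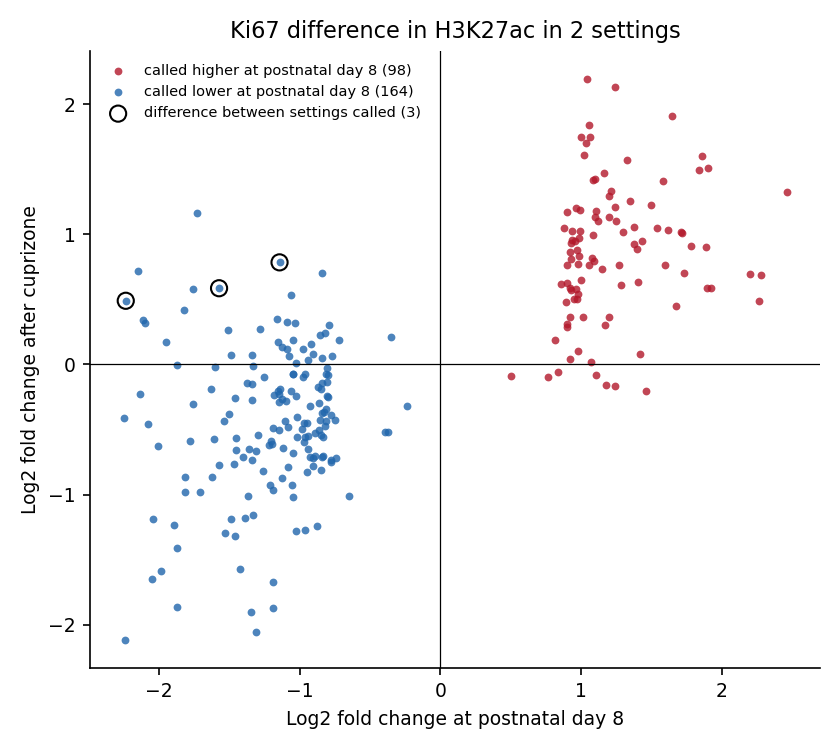
H3K27ac difference after cuprizone against that at PND8 (log2, Ki67-positive minus Ki67-negative, fit of 8 lists) for the 98 regions called higher and the 164 called lower at PND8; open circles mark 3 regions where the difference between settings was called. Of the higher regions 91 of 98 lie above 0 on both axes; the fourth such region, near Tmem163, was not called in the fit of the 4 PND8 lists and is not drawn.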

How the data were processed

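Samples were grouped by the labels alone. Per the submitters' processing notes STAR 2.7.0f, Bowtie2 2.3.4.1, HOMER 4.11 and DESeq2 were used, with no role given there. Per the file headers, the authors called H3K27ac regions with HOMER on mm10, library by library against input: windows of 500 bp joined within 1000 bp, at least 4 times the input, false discovery rate 0.001. The deposited signal is the tag count per 10000000 tags; it gave whole tags within 0.12 for all entries. The score is the authors' HOMER score and served only to rank ATAC-seq and Rpb2 peaks in 1 alternative. Headers of the last columns are out of order in the deposited lists: the column read as the fold, a ratio over input, is the column whose values equal tags over input tags. Stitching makes listed length vary between libraries, so a summed tag count mixes length and density, and both are given.

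Entries of the 4 lists that overlapped were merged. Regions in all 4 lists were tested with limma 3.58.1 (R 4.3.3; empirical Bayes with trend) on log2 (scaled tag count + 1), with Benjamini-Hochberg adjustment and a threshold of 0.05. RNA counts per gene were deposited by the authors as raw HOMER counts with at most 3 tags per position. They were fitted for all 10 libraries with edgeR 4.0.16 (TMM scaling, expression filter, quasi-likelihood test), and CPM values are from that fit. The libraries other than PND8 came from untreated adult C57 males and from older Ki67-rfp males. The latter had 17 days of PLX5622 and 3 days of recovery, and were sorted by Ki67. The ATAC-seq and Rpb2 peak lists were used for overlap of at least 1 bp, and the Rpb2 list was called against an input of H3K27ac Ki67-positive replicate 1, per the file headers. The title of the ATAC-seq library names the Ki67 reporter while its genotype label is WT. The scripts were tested on simulated data.

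Named regions were the 10 largest called changes in each direction and, among regions listed in 1 group alone, the 8 whose lower library was highest. Named genes were a fixed panel, members of a list with a called promoter, and the 8 largest RNA rises and falls with a tested promoter, of which 1 is not reported here. The regions, gene lists and tests were chosen with earlier results of these data known. Intervals cover counting error only, and tags without molecular identifiers are not independent molecules. TPM values, the H3K4me3 lists and the other ATAC-seq and Rpb2 lists were not used here. The alternatives tried are given at the end.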

Additional observations from a re-analysis of the deposited data

Results flagged for a closer look

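At 4 regions the Ki67 difference at PND8 and that under cuprizone differed by a test of the difference itself (limma, all 8 lists, difference of log2 differences, PND8 minus cuprizone). They were the region near Tmem163 (−2.18, adjusted p = 0.0305), the promoter of Gramd1b (−2.16, adjusted p = 0.0305), the promoter of Ifi207 (−2.72, adjusted p = 0.0351) and the region near Abca1 (−1.93, adjusted p = 0.0351). In all 4 the Ki67-positive libraries were below the Ki67-negative ones at PND8 and above them under cuprizone. Taken alone, the rise under cuprizone passed only near Tmem163 (limma adjusted p = 0.0397). It did not pass near Abca1 (limma adjusted p = 0.0547), at Gramd1b (0.121) or at Ifi207 (0.372). Near Tmem163 the scaled tag counts were 104 and 119 against 46.1 and 45.7 at PND8 and 246 and 293 against 546 and 477 under cuprizone. At Ifi207 they were 102 and 111 against 17.3 and 27.3, and 203 and 244 against 358 and 274. These values were merged and scaled over all 8 lists, so they differ from those of the 4 PND8 lists. The RNA of Gramd1b fell at PND8 (−0.51, edgeR adjusted p = 0.0135), while that of Abca1 (0.04) and Ifi207 (−0.36) had no called change. Every one of the 4 calls was lost without PND8 Ki67-negative replicate 1, without PND8 Ki67-positive replicate 1, without cuprizone Ki67-negative replicate 1 and without cuprizone Ki67-positive replicate 1, with the same sign each time. Ages and diets differ between the settings and cannot be told apart here; the header codes of the replicates 1 are shared by both settings and those of the replicates 2 are not.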

How the results depend on the processing

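The calls of higher and lower regions (181 and 203) were 292 and 96 on the deposited scale, 49 and 16 by density, 34 and 13 with at least 8 times the input, 23 and 10 without the trend, 0 and 0 over all merged regions, and 113 lower by edgeR on tags; leaving out a library gave 174 to 752 and 226 to 641. Regions in 1 group alone (793 and 718) became 1279 to 3045 and 1009 to 2336 without a library, since fewer lists then have to concur. RNA calls (336 and 385) were 541 and 676 without the expression filter, 164 lower with the PND8 libraries alone, and 162 to 672 and 58 to 441 without a library. Higher promoters among genes with higher RNA (63) were 34 by density; lower promoters among genes with lower RNA (2) were 1 on the deposited scale, 0 by density, 1 by edgeR on tags and 2 to 5 without a library. Higher G2/M promoters (20) were 11 by density, and higher S promoters (6) were 3 by density and 4 to 10 without a library. Calls of a difference between PND8 and cuprizone (0 and 4) were 0 lower on the deposited scale and by density, and 0 to 5 and 0 to 50 without a library. With at least 100 bp of overlap ATAC-seq peaks lay in 95.3% of tested regions. With only the peaks at or above the median of the authors' score, ATAC-seq gave 81.6% of tested, 90.1% of higher and 61.1% of lower regions, and Rpb2 56.1%, 75.1% and 19.2%.

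Replicate numbers are shared by the groups, but with 2 pairs they cannot be shown to pair the samples. With a replicate block 852 regions were higher and 1208 lower, 646 RNA genes lower, 146 and 17 promoters moved with RNA, 47 G2/M and 11 S promoters were higher, and 93 and 131 regions differed between settings; all of the 181 and 203 remained called. Igf1 (limma adjusted p = 0.0081), Apoe (0.0089), Ccnd1 (0.019) and Pcna (0.045) passed with the block too, as did 3 lower homeostatic and 1 higher and 3 lower neonatal or disease-associated promoters.

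Of 70 named regions and promoters 52 were called, and none of the called ones reversed under any alternative. By density 23 of these stayed called, without the trend 14, and under leaving out a library 47 to 51. Reversals were of values near 0 without a call. On the deposited scale Csf1r was 0.12, and by density P2ry12 was −0.13. Leaving out a library gave −0.25 to 0.21 at Csf1r, −0.24 to 0.26 at P2ry12, −0.014 to 0.35 at Tmem119, −0.19 to 0.34 at Cx3cr1 and −0.13 to 0.44 at Sall1. The cause of these shifts was not tested. Depth limits regions of few tags: the lowest listed value was 6.44 to 6.86 tags per 10000000.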
